A study of Mus musculus with 51 samples.

Results

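Epiblast-only H3K36me3 peaks are regions that carried a called H3K36me3 peak in the epiblast of both reciprocal hybrid crosses and in neither list for the extra-embryonic ectoderm (ExE). They were taken from the 23959 autosomal peaks of the authors' epiblast H3K36me3 table. A member had to overlap a peak of the B6/CAST and of the CAST/B6 epiblast list by at least 1 base and no peak of either ExE list, and 2464 peaks (10.3%) did. For comparison, 7496 peaks of the table lay in both epiblast and both ExE lists (shared peaks), and the mirrored rule gave 894 ExE-only peaks among the 12871 autosomal peaks of the ExE table. Because the calls in the wild-type epiblast and ExE chose the members, their wild-type H3K36me3 levels are given below as a description without a test.

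All embryos were collected at embryonic day 6.5 (E6.5) and were hybrids of the mouse strains C57BL/6 (B6) and CAST/EiJ (CAST), with the mother written first. In the B6/CAST and CAST/B6 crosses the B6 animals were C57BL6/Babr. B6/CAST and CAST/B6 carried no targeted allele. The matDKO/CAST embryos had CAST fathers, and mothers on a mixed B6/129 background that were homozygous for floxed Dnmt3a and Dnmt3b and carried Zp3-cre, a transgene expressed in growing oocytes. The embryos therefore received a deleted maternal copy and an intact paternal copy of both genes, and their eggs lacked maternally laid DNA methylation. Each library was made by ultra low-input native ChIP from a pool, nominally of 4 epiblasts or 8 ExE, so the libraries of a group differ by pool and not by single embryo. For each of H3K36me3, H3K4me3 and H3K27me3 there were 12 libraries, 2 for each of 3 crosses in 2 tissues, and 15 inputs.

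H3K36me3 is laid down over transcribed gene bodies by SETD2, which travels with elongating RNA polymerase II, and NSD-family enzymes place H3K36 methylation over broader domains. The mark is read by the PWWP domains of the de novo DNA methyltransferases. H3K4me3 marks the start sites of genes that are active or held ready, and H3K27me3 is placed by Polycomb repressive complex 2 at start sites of silent developmental genes. Start sites that carry both marks are called bivalent and are common at developmental regulators in early embryonic cells. The epiblast gives rise to the body of the embryo and the ExE to part of the placenta. 

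Depth per ChIP library ran from 2.09 to 12.6 M reads for H3K36me3, from 4.01 to 17.9 M for H3K4me3 and from 3.68 to 22.9 M for H3K27me3. The least deep H3K36me3 library was matDKO/CAST epiblast replicate 2. In the windows of Dnmt3b that were chosen on the inputs (chr2:153675001-153678000), H3K36me3 was 0.713 and 0.798 RPKM in matDKO/CAST epiblast against 1.27 to 2.15 RPKM in wild-type epiblast. The inputs overlapped there (wild type 0.186 to 0.556 RPKM, matDKO/CAST 0.158 to 0.239 RPKM), and the windows chosen for Dnmt3a did not separate the groups in H3K36me3. Summed H3K4me3 over the starts of 9 epiblast marker genes was 213 to 261 RPKM in wild-type epiblast and 96.0 to 140 RPKM in ExE. Summed H3K36me3 over the bodies of 8 ExE markers was 5.17 to 6.05 RPKM in epiblast and 9.79 to 12.7 RPKM in ExE. The bodies of 10 visceral endoderm markers also summed to more H3K36me3 in ExE (12 to 17.8 RPKM) than in epiblast (5.12 to 6.73 RPKM), and 9 of the 10 were higher in every ExE library. None of these markers was a gene of an epiblast-only peak, and the part of visceral endoderm in the tissue differences was not tested.

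The label of gene bodies held for a minority of the peaks. Of the 2464 members, 1015 overlapped a protein-coding or long non-coding gene record of GENCODE and 1449 (58.8%) lay outside all of them, against 3.78% of shared peaks, 17.4% of ExE-only peaks and 36.6% of all peaks in the table. Of those outside genes, 1334 touched no annotated record of any kind. Their median distance to the nearest protein-coding gene was 164 kb, 870 lay more than 100 kb away and 143 lay within 10 kb. More than 50% of the members were therefore intergenic. Their median length was 8500 bp (range 1000 to 132000 bp), against 7000 bp for all peaks of the table, 24000 bp for shared peaks and 13000 bp for ExE-only peaks.

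The share of members differed between autosomes. They made up 14.1% of the table's peaks on chromosome 1 (355 peaks), 14.1% on chromosome 18 and 13.4% on chromosome 10, but 2.65% on chromosome 11 (27 peaks) and 5.97% on chromosome 19. The median distance from a member to the next was 121 kb, and 442 had another within 20 kb. Members were poorer in G and C than shared peaks, with a median of 40.9% over genes and 39.3% outside genes, against 43.2% for shared and 45.1% for ExE-only peaks. Those outside genes were also richer in repeats, with a median of 44.8% soft-masked bases against 27.6% over genes and 26.1% in shared peaks. Reads from such sequence align less surely, and the part of base composition and repeats in the calls was not tested.

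The members over genes touched 724 genes, of which 552 were protein-coding (2.65% of 20807) and 172 non-coding. Most of these genes were only partly covered. Members covered under 10% of the body of 280 coding genes, 10 to 50% of 202 and at least 50% of 70, and the median share was 9.78%. The coding genes were long, with a median of 158 kb against 17.6 kb for all coding genes, while the 70 that were at least 50% covered had a median of 19.0 kb. For 313 of the 552 the ExE lists held no H3K36me3 peak anywhere in the body, and for the other 239 an ExE peak lay elsewhere in the same gene. Among the 552 were 35 genes of the Olfr, Vmn and Zfp families, 9 of them at least 50% covered, whose reads can be shared among near-identical copies and whose values are uncertain.

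The longest member, of 132000 bp, (chr2:49650501-49782500) lay over Kif5c, which encodes a neuronal kinesin heavy chain, and a member of equal length (chr11:35250001-35382000) lay in Slit3, which encodes a secreted ligand of Robo receptors and is named here only for the length of its peak. The next longest over a gene (chr8:90237001-90346500, 109500 bp) lay over Tox3, which encodes an HMG-box transcription factor. Outside genes the longest were 43000 bp each (chr6:128988501-129031500 and chr6:140246501-140289500) and 42000 bp (chr3:3332001-3374000). All coordinates are on GRCm38.

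The promoters of 4 genes with at least 50% of the body covered are shown because the results below turn on the marks at their starts, and because they differ in CpG content. Each is the 250 bases before the RefSeq start on GRCm38, read along the gene, with every CpG in capitals. RefSeq starts of these genes lay 0 to 91 bases from the GENCODE starts used for the marks. Kif5c lies on the plus strand (chr2:49619036-49619285), Tox3 on the minus strand (chr8:90348253-90348502), Uchl1 on the plus strand (chr5:66675871-66676120) and Sfrp2 on the plus strand (chr3:83766071-83766320).
Kif5c: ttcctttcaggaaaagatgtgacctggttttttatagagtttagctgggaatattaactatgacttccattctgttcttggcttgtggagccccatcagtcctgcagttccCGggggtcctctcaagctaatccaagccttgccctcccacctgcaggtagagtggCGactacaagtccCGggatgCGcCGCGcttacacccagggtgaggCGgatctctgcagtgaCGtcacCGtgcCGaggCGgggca
Tox3: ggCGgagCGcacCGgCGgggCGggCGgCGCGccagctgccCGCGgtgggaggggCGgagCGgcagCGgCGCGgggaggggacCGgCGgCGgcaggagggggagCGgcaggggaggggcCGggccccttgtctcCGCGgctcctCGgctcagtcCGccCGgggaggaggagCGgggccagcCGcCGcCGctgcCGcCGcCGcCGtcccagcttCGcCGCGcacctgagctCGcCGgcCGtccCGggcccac
Uchl1: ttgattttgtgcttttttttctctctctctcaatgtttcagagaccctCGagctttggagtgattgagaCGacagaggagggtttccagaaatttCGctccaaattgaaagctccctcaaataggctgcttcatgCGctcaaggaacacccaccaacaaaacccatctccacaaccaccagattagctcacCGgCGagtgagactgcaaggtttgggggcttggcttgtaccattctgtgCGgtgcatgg
Sfrp2: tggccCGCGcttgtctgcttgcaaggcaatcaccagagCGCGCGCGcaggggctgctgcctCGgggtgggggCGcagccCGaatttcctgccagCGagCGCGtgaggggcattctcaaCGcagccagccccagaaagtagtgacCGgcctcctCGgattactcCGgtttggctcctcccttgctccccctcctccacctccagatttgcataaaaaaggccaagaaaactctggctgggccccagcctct
Tox3 had 40 CpG in this window, Sfrp2 16, Kif5c 11 and Uchl1 7. In all, 407 of the 552 coding genes matched the RefSeq promoter table by symbol. Their median was 11 CpG, the same as over all 15687 coding genes matched, and 53.6% held at least 10 CpG against 53.5% of all. The 46 matched genes with at least 50% of the body covered had a median of 7. Genes of shared peaks (18) and of ExE-only peaks (16) had more. CpG content at the start thus did not set the genes of epiblast-only peaks apart from coding genes at large.

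H3K36me3 levels over the members are given for each tissue beside the inputs. Levels are medians over peaks of the mean RPKM in 1 kb windows, where RPKM is the read count scaled to window length and to the mapped reads of the library. Over genes, the 4 wild-type epiblast libraries had 0.675 to 0.798 RPKM (median 0.777) and the 4 ExE libraries 0.407 to 0.472 RPKM (median 0.443). Outside genes the levels were 0.651 to 0.724 RPKM (median 0.700) and 0.345 to 0.404 RPKM (median 0.378). The tissues did not overlap, which is what the rule selects. The 15 inputs had 0.480 to 0.501 RPKM over genes and 0.415 to 0.454 RPKM outside genes, so all ExE libraries lay below the inputs and all epiblast libraries above. ChIP libraries also lay below the inputs outside all peaks, where the inputs had 0.469 to 0.483 RPKM, so a level under input does not show that the mark was absent. Shared peaks were the reverse case, with 0.865 to 1.19 RPKM in epiblast and 1.24 to 1.69 RPKM in ExE.

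**Figure D1:**
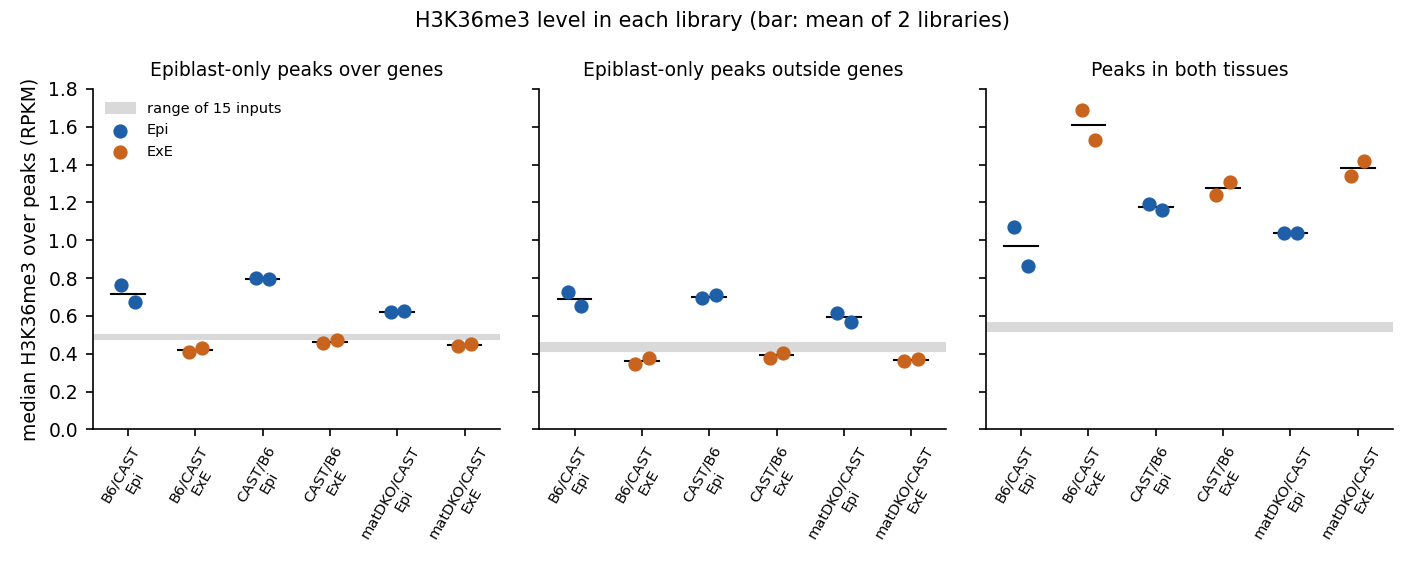
Median H3K36me3 (RPKM) over epiblast-only peaks on genes, epiblast-only peaks outside genes and shared peaks, with 1 point per library, the mean of each pair as a bar and the range of the 15 inputs as a grey band. At epiblast-only peaks every epiblast library lies above the band and every ExE library below it, in matDKO/CAST as in the wild-type crosses, while at shared peaks all libraries lie above the band.

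Part of the tissue gap was not particular to the peaks. Outside all H3K36me3 peaks the mean H3K36me3 level was 0.347 to 0.408 RPKM in wild-type epiblast and 0.260 to 0.353 RPKM in ExE, and the ranges overlapped. Around the members outside genes, wild-type epiblast rose from 0.397 RPKM at 40 kb upstream to 0.792 RPKM at the centre, while ExE rose from 0.301 to 0.417 RPKM. Input changed from 0.414 to 0.436 RPKM over the same distance. A small rise was thus present in ExE as well, although no ExE peak was called there. Members over genes behaved alike, with 0.855 RPKM at the centre in wild-type epiblast, 0.481 RPKM in ExE and 0.490 RPKM in input.

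**Figure D2:**
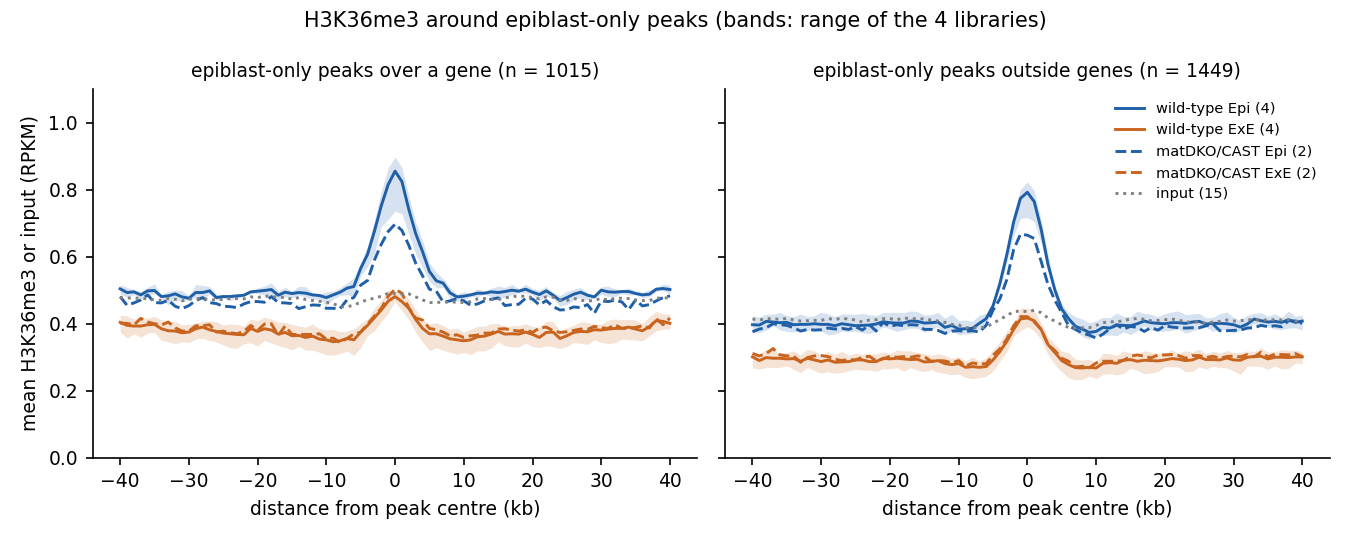
Mean H3K36me3 or input (RPKM) in 1 kb windows against the distance (kb) from the centre of epiblast-only peaks, over genes (n = 1015) and outside genes (n = 1449). Solid lines are means of 4 wild-type libraries with their range as a band, dashed lines means of 2 matDKO/CAST libraries and the dotted line the mean of 15 inputs, and the epiblast lines rise to 0.855 (wild type) and 0.697 (matDKO/CAST) RPKM over genes where the ExE lines reach 0.481 and 0.503.

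The threshold of the rule fell within a continuum. The 75 members within 5000 bp of an ExE peak, just inside, had medians of 0.759 RPKM in wild-type epiblast and 0.517 RPKM in ExE. The 35 peaks just outside, in both epiblast lists with under 10% of their length under an ExE peak, had 0.760 and 0.491 RPKM. Members over 5000 bp from an ExE peak had 0.719 and 0.401 RPKM. No gap separated the peaks kept from those left out.

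The matDKO/CAST libraries entered no peak list used by the rule and asked whether the tissue difference was present in embryos without oocyte DNA methylation. The methods name B6/CAST and CAST/B6, and not matDKO/CAST, for the peak calls. Over members on genes, the epiblast libraries had 0.618 and 0.624 RPKM and the ExE libraries 0.443 and 0.452 RPKM. Outside genes they had 0.570 and 0.616 RPKM against 0.363 and 0.374 RPKM. Both epiblast libraries thus lay above both ExE libraries, while the wild-type gap comes from the values that chose the members and the gaps were not compared.

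Peak by peak the direction was shared widely, but individual calls were not firm. The difference (epiblast minus ExE, log2 of RPKM + 0.5) was positive at 2127 of the 2464 members (86.3%) and had a median of 0.28, against 47.9% and -0.02 over all 23959 peaks. The size of that median depended on the settings. It was 0.49 with 0.1 added in place of 0.5 and 0.19 with 1 added (all peaks -0.04 and -0.01). Quantile normalization gave 0.15 and edgeR 0.68 (all peaks -0.01 and 0.08). Both epiblast libraries exceeded both ExE libraries at 1429 members (58.0%), against 24.2% of all peaks. With limma across all peaks, 326 members (13.2%) were higher in epiblast at an adjusted p-value below 0.05 and 1 was lower, while 4.50% of all peaks were higher and 9.26% lower. On simulated reads this fit called more unchanged peaks than its threshold allows. Of the 326, 218 lay outside genes (15% of those members) and 108 over genes (10.6%). Among peaks outside genes that were neither members nor shared, 6.56% were higher in epiblast and 70.9% had a positive difference (median 0.18), so the direction was common to intergenic peaks and stronger at the members. The median over shared peaks was -0.28.

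The number of single peaks called hung on few libraries and on the fit. Without epiblast replicate 2 of matDKO/CAST, which is the least deep, 13 members were called higher (0.528%, against 0.301% of all peaks), and without epiblast replicate 3, 415 (16.8%, against 6.81%) with 20 lower. Without ExE replicate 2 the number was 52 (2.11%, against 0.902%), and without ExE replicate 3 it was 128 (5.19%, against 2.3%). Quantile normalization left 12 higher (0.487%, against 0.317% of all peaks) and library weights, chosen after seeing the data, left 3 (0.122%, against 0.0543%). A test on recovered reads with edgeR called 636 higher (25.8%, against 6.85%), and a fit of the 4 matDKO/CAST libraries alone called 0 (418 at an unadjusted p-value below 0.05).

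Over whole gene bodies the difference in matDKO/CAST was smaller. It was positive for 621 of 724 genes with a median of 0.13 (all 30233 genes -0.05), and 44 genes (6.08%) rose and 3 fell in epiblast, against 1.17% and 6.67% of all genes. The median was 0.26 with 0.1 added in place of 0.5, 0.09 with 1 added and 0.45 by edgeR (all genes -0.10, -0.03 and 0.02). Among the 70 coding genes at least 50% covered, 14 rose and none fell by the same limma test (39 higher and 1 lower at an unadjusted p-value below 0.05). By edgeR 301 of the 724 genes (41.6%) were higher and 1 was lower, against 4.03% and 4.98% of all genes. Without epiblast replicate 2 limma called 0 genes (154 higher and 9 lower at an unadjusted p-value below 0.05). Without epiblast replicate 3 it called 35 higher and 5 lower (1.97% and 6.84% of all genes), without ExE replicate 2, 1 and 1 (0.0761% and 0.794%), and without ExE replicate 3, 6 and 0 (0.175% and 0.671%).

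Of the well-covered coding genes, Uchl1 had the largest H3K36me3 difference in matDKO/CAST among those that passed, and Tox3 and Kif5c carried the longest members on such genes. Uchl1, a ubiquitin C-terminal hydrolase abundant in neurons (chr5:66676091-66687234, 82.9% covered), had 1.45, 0.973, 1.43 and 1.19 RPKM in the wild-type epiblast libraries and 0.345, 0.586, 0.481 and 0.528 RPKM in ExE. In matDKO/CAST it had 1.48 and 1.08 RPKM in epiblast and 0.421 and 0.561 RPKM in ExE, a log2 difference of 0.84 (SE 0.18, adjusted p = 0.0355). No epiblast library overlapped an ExE library in either genotype. Tox3 (chr8:90247040-90348343, 98.2% covered) had 0.887 and 0.842 RPKM in matDKO/CAST epiblast and 0.341 and 0.491 RPKM in ExE, a difference of 0.58 (SE 0.09, adjusted p = 0.0209). In the wild type its body had 0.795 to 1.02 RPKM in epiblast and 0.405 to 0.484 RPKM in ExE. Kif5c (chr2:49619298-49774778, 97.0% covered) had 0.761 and 0.763 RPKM against 0.385 and 0.480 RPKM in matDKO/CAST, a difference of 0.44 (SE 0.08, adjusted p = 0.0263). For all 3 bodies every epiblast library lay above every ExE library in both genotypes, which in the wild type is what the rule selects.

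Signalling genes were among them. Lefty2, a secreted inhibitor of Nodal that is expressed in the early embryo (chr1:180893108-180899103, 68.4% covered), had 0.616 and 0.789 RPKM in matDKO/CAST epiblast and 0.127 and 0.347 RPKM in ExE, a difference of 0.72 (SE 0.14, adjusted p = 0.0307). Its wild-type levels overlapped between tissues, with 0.715 to 1.29 RPKM in epiblast and 0.348 to 0.751 RPKM in ExE. Trib2, a pseudokinase, differed by 0.59 (SE 0.12, adjusted p = 0.0315) and Sertad4 by 0.60 (SE 0.14, adjusted p = 0.0419). Sdc2, a cell-surface heparan sulphate proteoglycan, differed by 0.51 (SE 0.10, adjusted p = 0.0310), and Enpp3, an ectonucleotidase, by 0.49 (SE 0.09, adjusted p = 0.0277). Setbp1, whose body held the most covered bases (264 kb over 6 members), differed by 0.30 (SE 0.08, adjusted p = 0.0570) and did not pass. Sfrp2, a secreted WNT antagonist, had 0.745 and 0.653 RPKM in matDKO/CAST epiblast and 0.363 and 0.644 RPKM in ExE (difference 0.27, adjusted p = 0.431). The H3K36me3 calls of Uchl1, Tox3, Kif5c, Lefty2, Trib2, Sertad4, Sdc2 and Enpp3 were each lost under 4 to 8 alternatives.

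Of the 724 genes, 225 carried more H3K4me3 at their start in epiblast. Promoter values are the mean RPKM within 1000 bp of the start. The rule did not use them, but the methods name all 3 marks for a joint peak caller, and whether H3K4me3 and H3K27me3 entered the H3K36me3 calls was not tested. The median over the 552 coding genes was 9.64 to 12.2 RPKM in the 4 wild-type epiblast libraries and 4.82 to 7.40 RPKM in ExE, without overlap, whereas over all coding genes the ranges overlapped (7.69 to 11.0 and 5.52 to 9.18 RPKM). In the wild type, 225 of the 724 genes (31.1%) were higher in epiblast by limma and 6 (0.829%) were lower, against 7.25% and 2.65% of all genes. The median difference was 0.29, against 0.00 over all genes. Among the 552 coding genes it was 0.42, with 205 higher (37.1%) and 6 lower, and among the 70 at least 50% covered 0.57, with 29 higher (41.4%) and 2 lower. Among the 5677 coding genes of shared peaks, 133 were higher (2.34%) and 53 lower (0.934%).

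The H3K4me3 libraries of the 2 tissues that share a replicate number had positively correlated deviations, so a fit with the replicate number as a block was also made. With 2 libraries per group such a correlation can be positive without pairing. In CAST/B6 the tissues share only replicate number 2. It called 185 genes higher (25.6%, against 4.28% of all genes) and 1 lower (0.138%, against 0.698%) in the wild type. The count lower was 2 or 3 without any one of 7 of the wild-type libraries and 7 without CAST/B6 epiblast replicate 3. Centring every library on its median promoter moved the median of all genes to -0.29, and the members then had a median of 0.00, with 225 higher and 56 lower (7.73%, against 27.2% of all genes). The number higher and the distance of the members from all genes were the same under that scale, but the count of genes lower was not. Of the 552 starts, 74 had the start of another gene within 1000 bp, and ChIP signal cannot be assigned to a strand.

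In matDKO/CAST the H3K4me3 difference had the same direction. All 225 genes called higher in the wild type were positive in matDKO/CAST and 128 of them passed there too, as 2190 of the 2193 called over all genes were positive and 1278 passed. In all 134 genes (18.5%) were higher and 1 was lower, against 4.63% and 0.678% of all genes, with a median of 0.32 (all genes -0.01). Here too single libraries decided the count, which was 0 without epiblast replicate 1, 75 without epiblast replicate 2, 24 without ExE replicate 2 and 76 without ExE replicate 3. Over all genes the same fits called 0.0%, 2.61%, 0.913% and 2.29% higher. With the replicate block, for which these tissues share 1 number, no gene passed by limma (270 higher and 44 lower at an unadjusted p-value below 0.05). With median centring 140 were higher (19.3%, against 4.44% of all genes) and 122 lower (16.9%, against 39.3%), and the median of all genes was -0.47 against -0.13 for the members. A test of the interaction of genotype and tissue called 0 genes among all 30233 (17 of the 724 at an unadjusted p-value below 0.05, and 53 for H3K27me3, where limma also called 0), so no gene's difference was shown to depend on the genotype of the mother.

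H3K27me3 at the same starts went the opposite way for a smaller set of genes. The median over the 552 coding genes was 0.749 to 0.932 RPKM in wild-type epiblast and 0.987 to 1.16 RPKM in ExE. Over all coding genes it was lower, with 0.343 to 0.404 and 0.331 to 0.364 RPKM. In the wild type 93 of 724 genes (12.8%) were lower in epiblast and 32 (4.42%) higher, against 6.20% and 8.21% of all genes. The median difference was -0.08, against 0.03 over all genes. Among the 70 coding genes at least 50% covered, 19 were lower (27.1%) and 2 higher, with a median of -0.23. Genes of ExE-only peaks were the reverse, with 196 of 651 higher in epiblast and 10 lower.

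The H3K27me3 counts depended on every library but one. The number lower was 41 without B6/CAST epiblast replicate 2, 37 without B6/CAST ExE replicate 1, 56 without B6/CAST ExE replicate 2, 45 without CAST/B6 epiblast replicate 2, 40 without CAST/B6 ExE replicate 1, 45 without CAST/B6 ExE replicate 2, and 63 or 80 without either of the other two. The number higher was 11 to 17 without any of those libraries or CAST/B6 epiblast replicate 1 and 26 without B6/CAST epiblast replicate 1. In each of these fits more members were lower than higher, and 5.11 to 11.0% of the members were lower against 1.83 to 5.35% of all genes. In matDKO/CAST 16 genes (2.21%) were lower and 6 (0.829%) higher, against 0.714% and 1.00% of all genes, and the median was -0.15 (all genes -0.08). Other settings raised the number lower in matDKO/CAST, to 89 with quantile normalization (12.3%, against 4.58% of all genes), 75 with a mean of at least 0.5 RPKM (17.5%, against 10.5%), 74 with the replicate block (10.2%, against 3.66%), 62 with median centring (8.56%, against 3.71%) and 35 with edgeR (4.83%, against 1.62%). In the wild type edgeR called 169 lower (23.3%, against 13.3%) and median centring 145 (against 10.1% of all genes). Of the 93 genes lower in the wild type, 91 were negative in matDKO/CAST and 15 passed there, and over all genes 1793 of 1873 were negative and 123 passed. Without epiblast replicate 2, 2 were lower and 1 was higher (0.0794% and 0.599% of all genes), and without ExE replicate 3, 9 and 1 (0.311% and 0.185%). Without ExE replicate 2 limma called 0 in either direction (81 lower and 51 higher at an unadjusted p-value below 0.05), against 0.0232% and 0.086% of all genes.

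Higher H3K4me3 and lower H3K27me3 in epiblast met at part of the same starts. By the methods each chromatin pool was divided among the antibodies, so the marks need not come from separate pools. In the wild type 61 of the 724 genes (8.43%) were both higher in H3K4me3 and lower in H3K27me3, against 1.15% of all genes. They were 27.1% of the members with higher H3K4me3 and 65.6% of those with lower H3K27me3, against 15.8% and 18.5% over all genes, and 13 of them were at least 50% covered. Another 8 of the 724 were higher in both marks, as were 282 of all 30233 genes. The joint count was not repeated with a library left out, and the H3K27me3 calls it rests on became fewer in those fits. In a pooled tissue, a mark carried by fewer cells and a weaker mark in every cell cannot be told apart.

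**Figure D3:**
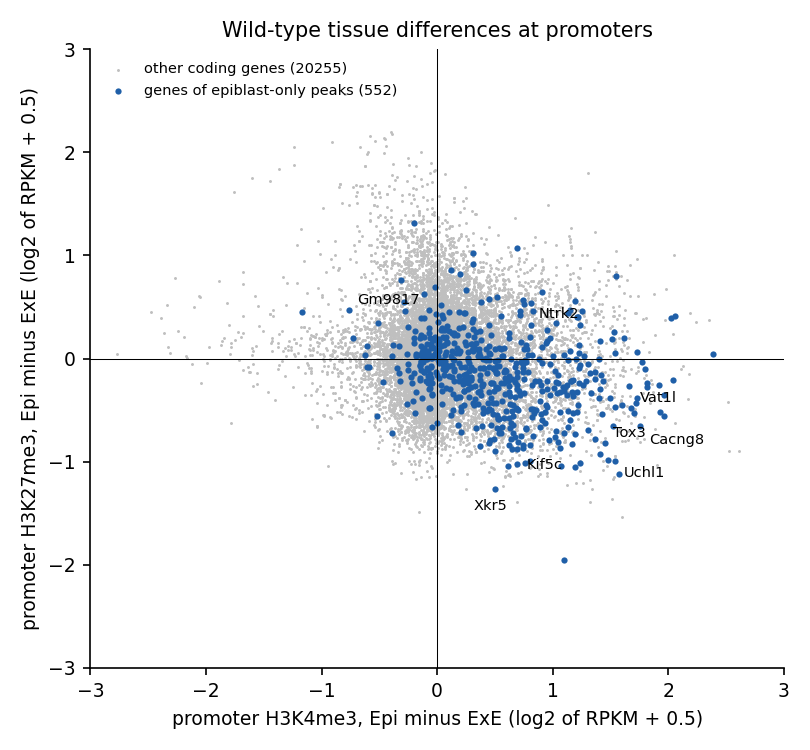
Wild-type difference between epiblast and ExE in promoter H3K4me3 (x axis) and H3K27me3 (y axis), each as log2 of RPKM + 0.5, for the 552 coding genes of epiblast-only peaks (blue) and the other 20255 coding genes (grey). The blue points spread to the right and below 0, where Kif5c, Tox3 and Uchl1 lie, and Gm9817 is one of the 6 coding genes that passed as lower in H3K4me3.

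Peak calls at the start sites were also compared as states. A state was assigned where both wild-type crosses had a peak over the start. Of the 552 coding genes, 78.8% had H3K4me3 in epiblast and 77.7% in ExE, so that nearly the same share of starts was marked in both tissues. H3K27me3 lay over 48.2% in epiblast and 64.5% in ExE, and both marks together over 47.5% and 60.1%. Among all coding genes both marks lay over 21.0% and 26.1% and the H3K27me3 shares were 23.7% and 36%, and among genes of shared peaks 9.78% and 17.4%. The genes of epiblast-only peaks thus carried both marks at a higher share than coding genes at large in either tissue, and in both sets the share was higher in ExE. Genes of ExE-only peaks also exceeded coding genes at large, with 33.9% in epiblast and 32.8% in ExE.

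More starts had both marks in ExE and H3K4me3 alone in epiblast than the reverse, for the members and for all coding genes. In 77 genes (13.9%, against 6.52% of all coding genes) the start carried H3K4me3 alone in epiblast and both marks in ExE, and in 6 genes (1.09%, against 1.46%) the reverse. H3K27me3 was present in both ExE lists and no epiblast list at 66 starts and in both epiblast lists and no ExE list at 2, shares of 12% and 0.362% that were close to the 10.1% and 0.663% of all coding genes. H3K4me3 was present in epiblast lists alone at 5 starts (0.906%, against 0.404% of all coding genes) and in ExE lists alone at 1 (0.181%, against 0.553%). The ExE lists held more H3K27me3 peaks over more of the genome (20452 and 20870 autosomal peaks over 368.7 and 477.8 Mb) than the epiblast lists (9467 and 10490 over 103.9 and 116.5 Mb), and the part of that in the shares was not tested.

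**Figure D4:**
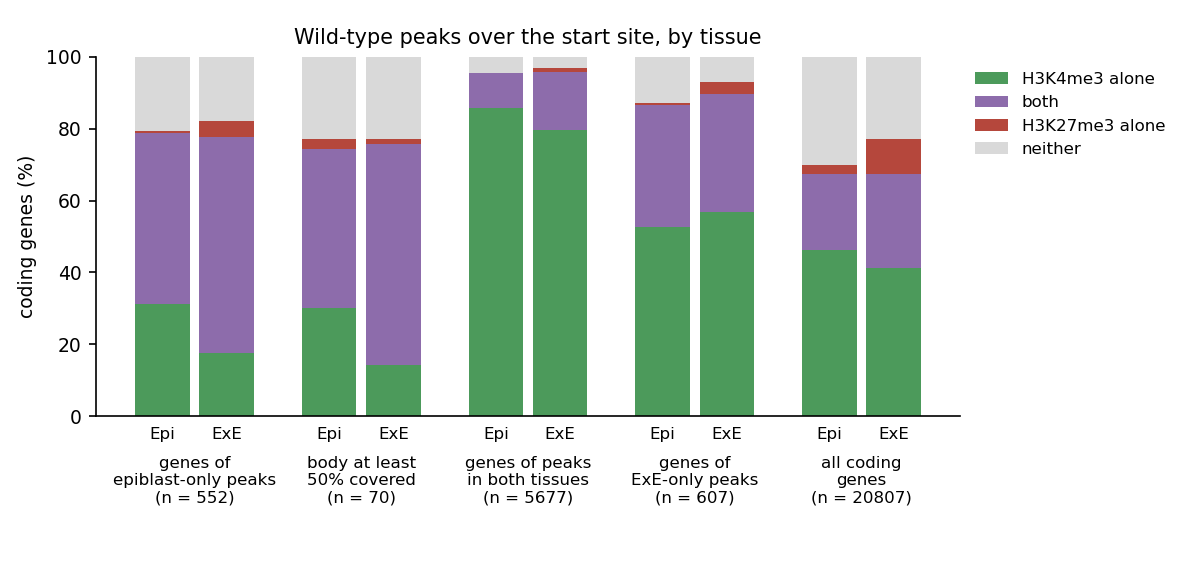
Percentage of coding genes whose start lay under wild-type peaks of H3K4me3 alone, both marks, H3K27me3 alone or neither, in epiblast and ExE, for 5 sets of genes with their n. For genes of epiblast-only peaks the share with both marks is 47.5% in epiblast and 60.1% in ExE, while genes of shared peaks carry mostly H3K4me3 alone.

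Kif5c and Tox3, which carried the longest members on well-covered genes, differed in both marks. At the Kif5c start H3K4me3 was 21.4, 17.7, 27.4 and 25.4 RPKM in the wild-type epiblast libraries and 8.76, 9.34, 8.11 and 11.3 RPKM in ExE (difference 1.24, SE 0.15, adjusted p = 0.00158). H3K27me3 was 1.46, 1.06, 1.59 and 1.62 RPKM in epiblast and 3.23, 3.47, 3.19 and 3.6 RPKM in ExE (difference -1.01, SE 0.19, adjusted p = 0.00801). The tissues did not overlap for either mark. At the Tox3 start, whose 250 bases above are the densest in CpG, H3K4me3 was 22.5, 16.8, 25 and 22.9 RPKM in epiblast and 8.70, 8.12, 5.17 and 9.09 RPKM in ExE (difference 1.45, SE 0.17, adjusted p = 0.00152). Its H3K27me3 was 0.586 to 0.873 RPKM in epiblast and 1.54 to 1.95 RPKM in ExE (difference -0.82, SE 0.14, adjusted p = 0.00562), and the start was called H3K4me3 alone in epiblast and both marks in ExE.

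Uchl1, the CpG-poorest of the promoters shown, changed as much. Its H3K4me3 was 16.3, 17.3, 16.9 and 19.4 RPKM in wild-type epiblast and 7.73, 8.40, 3.08 and 4.94 RPKM in ExE (difference 1.54, SE 0.15, adjusted p = 0.00112). Its H3K27me3 was 1.28 to 2.40 RPKM in epiblast and 3.40 to 4.69 RPKM in ExE (difference -0.99, SE 0.16, adjusted p = 0.00369). In matDKO/CAST its H3K4me3 difference was 1.13 (adjusted p = 0.0173) and its H3K27me3 difference -0.85 (adjusted p = 0.0791). At Tox3 both marks passed in matDKO/CAST, with 1.4 (adjusted p = 0.0129) and -1.35 (adjusted p = 0.0201), while at Kif5c H3K4me3 passed (0.97, adjusted p = 0.0334) and H3K27me3 did not (-0.71, adjusted p = 0.178). With the replicate block the H3K4me3 differences of Uchl1, Tox3 and Kif5c in matDKO/CAST did not pass (adjusted p = 0.120, 0.126 and 0.127).

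**Figure D5:**
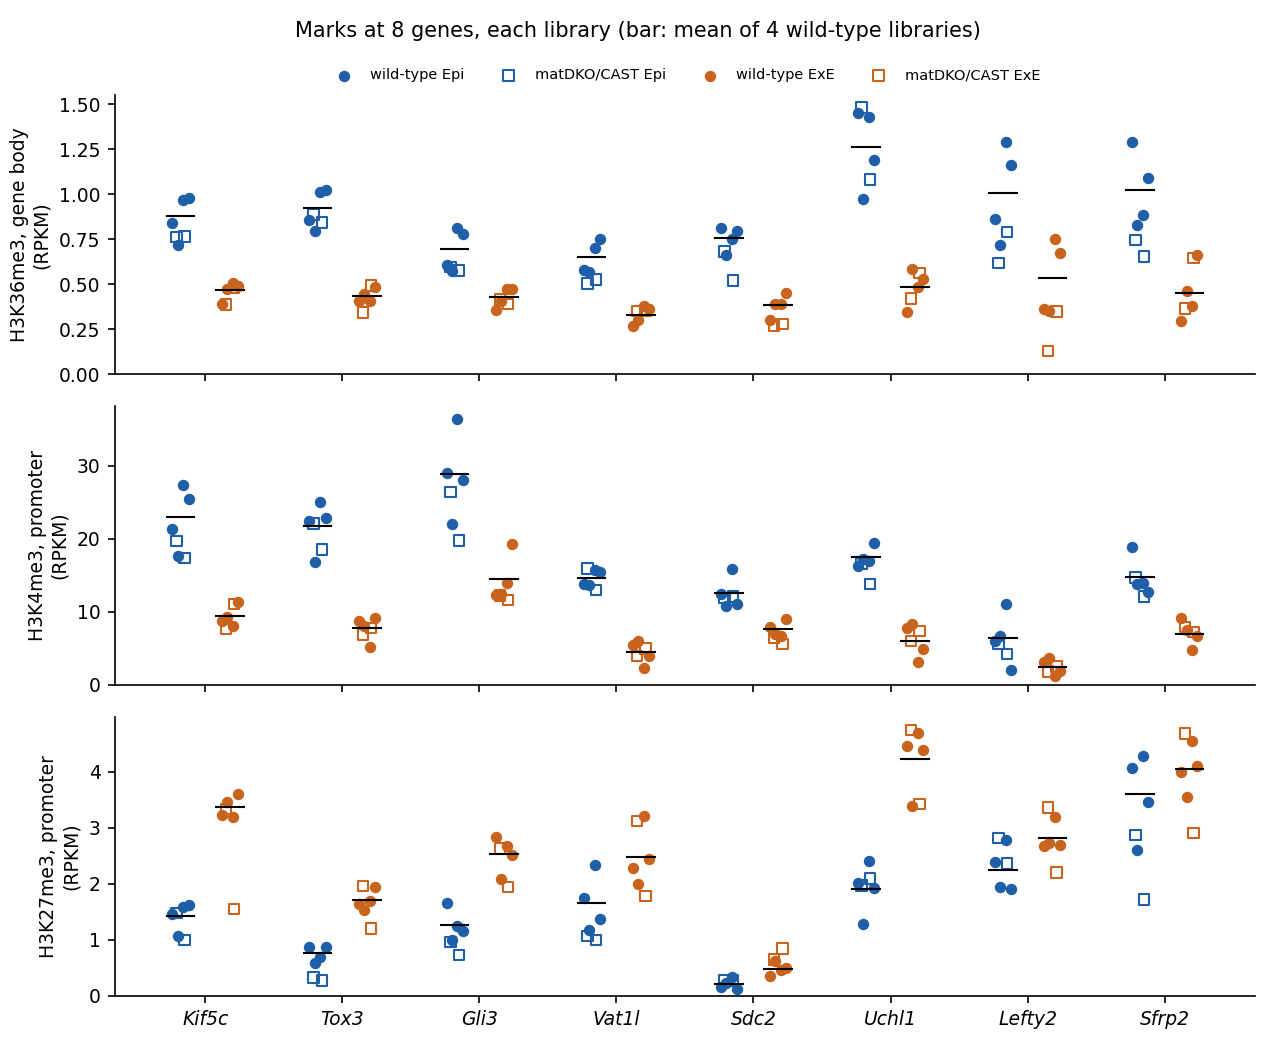
H3K36me3 over the gene body and H3K4me3 and H3K27me3 at the start (RPKM) of 8 genes, with filled points for the wild-type libraries (n = 4 per tissue), open squares for matDKO/CAST (n = 2 per tissue) and a bar at the wild-type mean. For Kif5c, Tox3 and Uchl1 the wild-type tissues do not overlap for any of the 3 marks, which for H3K36me3 is what the rule selects. For Sfrp2 the H3K27me3 values overlap.

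Other well-covered genes changed in 1 mark or in both. Among transcription factor genes, Gli3, a mediator of hedgehog signalling (57.6% covered), rose in H3K4me3 by 0.97 (adjusted p = 0.00534) and fell in H3K27me3 (-0.79, adjusted p = 0.00898). Setbp1 showed 0.83 (adjusted p = 0.00996, and 0.0661 with the replicate block) and -0.75 (adjusted p = 0.0255, a call lost under 8 alternatives). Etv1, an ETS factor with low H3K27me3 in both tissues, rose in H3K4me3 by 0.61 (adjusted p = 0.0458, and 0.0845 with the replicate block), a call lost under 10 alternatives. Its H3K27me3 difference was -0.22 (adjusted p = 0.361). Among genes of neurons, Cacng8, a regulatory subunit of AMPA receptors, had one of the largest H3K4me3 differences (1.76, SE 0.21, adjusted p = 0.00152), with 10.2 to 11.0 RPKM in epiblast and 1.90 to 3.41 RPKM in ExE, and a lower H3K27me3 (-0.65, adjusted p = 0.0370, a call lost under 10 alternatives). Dpysl5, of the collapsin response mediator family, showed 0.76 (adjusted p = 0.0296, a call lost under 8 alternatives) and -1.01 (adjusted p = 0.00934).

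Vat1l, Soga3 and Gm45717 were high in H3K4me3 in epiblast, with differences of 1.68 (adjusted p = 0.00112), 1.73 (adjusted p = 0.00147) and 1.70 (adjusted p = 0.00114). H3K27me3 was lower at Gm45717 (-0.53, adjusted p = 0.0284, a call lost under 10 alternatives), and its differences at Vat1l (-0.48, adjusted p = 0.122) and Soga3 (-0.38, adjusted p = 0.199) did not pass. Sdc2 showed 0.68 (adjusted p = 0.0188) and -0.48 (adjusted p = 0.0480), and these calls were lost under 8 and 10 alternatives. Mapk4, an atypical MAP kinase, passed for neither mark at the start of its record, with 0.55 (adjusted p = 0.0645) and -0.72 (adjusted p = 0.0771). At its annotated start with the most H3K4me3 it passed for both, with 0.74 (adjusted p = 0.0168) and -0.73 (adjusted p = 0.0367). At Lefty2 H3K4me3 was 5.97, 6.69, 11.1 and 2.02 RPKM in epiblast and 3.14, 3.68, 1.23 and 1.85 RPKM in ExE. The last epiblast value, of CAST/B6 replicate 3, lay within the range of ExE, and the difference of 1.11 (SE 0.40, adjusted p = 0.140) did not pass. With the replicate block the difference was 1.56. That library has no ExE partner of the same number, so the block leaves its low value out of the difference.

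For some genes H3K27me3 was the mark that differed. Xkr5 had the largest fall among well-covered genes (-1.27, SE 0.15, adjusted p = 0.00107), with 0.655 to 1.28 RPKM in epiblast and 2.51 to 3.23 RPKM in ExE, while its H3K4me3 difference of 0.50 did not pass (adjusted p = 0.133, and 0.0457 with the replicate block). Cdc42ep5, an effector of the small GTPase Cdc42, fell by 0.82 on the log2 scale (adjusted p = 0.00946) and had an H3K4me3 difference of 0.45 (adjusted p = 0.131). At Trib2 H3K27me3 was 0.187 to 0.315 RPKM in epiblast and 0.408 to 1.08 RPKM in ExE (difference -0.67, adjusted p = 0.0118). Its H3K4me3 difference was 0.52 (adjusted p = 0.0742). H3K36me3 over the body of Cdc42ep5 did not differ in matDKO/CAST beyond the spread (-0.02, SE 0.14, adjusted p = 0.941).

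A few well-covered genes ran against the majority. The predicted gene Gm9817 had less H3K4me3 in epiblast (0.299 to 0.727 RPKM) than in ExE (0.917 to 1.35 RPKM, difference -0.76, adjusted p = 0.0159, and 0.120 with the replicate block) and more H3K27me3 (0.47, adjusted p = 0.0320). These calls were lost under 6 and 9 alternatives. Gm11077 was also lower in H3K4me3 (-0.51, adjusted p = 0.0304, and 0.211 with the replicate block), from values under 1 RPKM in both tissues, a call lost under 13 alternatives. The vomeronasal receptor gene Vmn1r210 was higher in H3K27me3 (0.39, adjusted p = 0.0292, a call lost under 14 alternatives that include leaving out any single library and the start with the most H3K4me3, where it was 0.10 with adjusted p = 0.694), with 0.370 to 0.593 RPKM in epiblast and 0.218 to 0.253 RPKM in ExE, and its start was under neither mark in the calls of both crosses. In matDKO/CAST none of these bodies differed in H3K36me3 by limma, with -0.11, -0.15 and 0.18 (adjusted p = 0.790, 0.553 and 0.639).

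Across lists of genes by function, neural and axon genes held members most often. Of 25 neural and axon genes 9 (36%) held a member, against 2.65% of all coding genes. That list had a median gene length of 219 kb, and the part of length was not tested. Among them were the hedgehog mediators Gli3 and Gli2, the guidance genes Robo1, Slit2 and Dcc, the ephrin receptors Epha5 and Ephb1 and the neurotrophin receptor Ntrk2. Of these 9, 7 were higher in promoter H3K4me3 in wild-type epiblast and 2 were lower in H3K27me3, and of the whole list of 25, 15 and 3 were, against 7.94% and 5.75% of all coding genes. For cadherins and cell adhesion the count was 3 of 23 (13.0%), for the post-implantation epiblast 3 of 23 (13.0%), for core pluripotency 2 of 23 (8.70%), for WNT signalling 2 of 26, for FGF signalling 1 of 20, for Nodal and activin signalling 1 of 16 and for trophoblast and ExE 1 of 23. No member lay over any of 14 genes of the DNA methylation machinery, 17 of BMP signalling, 22 Polycomb genes, 11 of H3K36 methylation, 23 genes used in every cell, or over the lists for visceral endoderm (19), primitive streak and mesoderm (18), ectoplacental cone and giant cells (12) and primordial germ cells (9).

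Within the neural list only Gli3 was at least 50% covered. Gli2 (27.8% covered) rose in H3K4me3 by 1.02 (adjusted p = 0.0207, a call lost under 8 alternatives) and fell in H3K27me3 (-0.76, adjusted p = 0.00940), with 1.61 to 2.47 RPKM in epiblast and 3.15 to 4.31 RPKM in ExE. Slit2 (6.78% covered) rose in H3K4me3 by 0.94 (adjusted p = 0.00517), Epha5 (3.45%) by 0.91 (adjusted p = 0.0141) and Ntrk2 (2.44%) by 0.81 (adjusted p = 0.0103). H3K27me3 at these 3 starts stayed at 2.42 to 6.36 RPKM in every wild-type library and its differences did not pass (0.15, 0.11 and 0.33, adjusted p = 0.646, 0.724 and 0.163). Robo1 (8.88%) had almost no H3K4me3 at the start of its gene record (0.299 RPKM or less in epiblast). At the annotated start with the most H3K4me3 it had 28.3 to 50.6 RPKM in epiblast and 13.0 to 18.9 RPKM in ExE (1.2, adjusted p = 0.00623) and a lower H3K27me3 (-1.06, adjusted p = 0.00318). For Enpp3 H3K4me3 at that start was 1.97 to 4.00 RPKM in epiblast and 0.533 to 1.13 RPKM in ExE (1.52, adjusted p = 0.00112), and H3K27me3 did not differ beyond the spread (-0.04, adjusted p = 0.857).

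The adhesion and epiblast genes ranged from slightly to wholly covered. Cdh2, which encodes N-cadherin (27% covered), rose in H3K4me3 by 0.94 (adjusted p = 0.0170, a call lost under 7 alternatives). Nrcam, a neuronal adhesion molecule (23.4%), rose by 0.90 (adjusted p = 0.00377). H3K27me3 was lower at Nrcam (-0.54, adjusted p = 0.0395, a call lost under 11 alternatives), and at Cdh2 its difference was -0.45 (adjusted p = 0.0987). Ctnna2, the neural alpha-catenin (1.23%), rose by 1.37 (adjusted p = 0.00118) and fell in H3K27me3 (-0.78, adjusted p = 0.0245, a call lost under 9 alternatives). Lin28b, an inhibitor of let-7 maturation (8.55%), rose in H3K4me3 by 0.63 (adjusted p = 0.0399, and 0.0625 with the replicate block), a call lost under 9 alternatives. Gdf3, a ligand of the transforming growth factor family, was covered whole (100%), with 0.753 to 0.817 RPKM of H3K36me3 in wild-type epiblast and 0.364 to 0.584 RPKM in ExE. Its body difference in matDKO/CAST was 0.19 (SE 0.09, adjusted p = 0.240 by limma) and did not pass. The Gdf3 start had 0.380 to 1.21 RPKM of H3K4me3 over the 8 wild-type libraries (difference 0.11, adjusted p = 0.899).

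Among the signalling genes, Sfrp2 (72.7% covered) rose in H3K4me3 by 1.05 (SE 0.15, adjusted p = 0.00272), with 18.9, 13.8, 13.9 and 12.7 RPKM in epiblast and 9.09, 7.57, 4.71 and 6.65 RPKM in ExE. H3K27me3 at its start was 2.6 to 4.29 RPKM and 3.56 to 4.55 RPKM, which overlapped (difference -0.16, adjusted p = 0.632). Fzd3, a WNT receptor (3.57%), had an H3K4me3 difference of 0.64 (adjusted p = 0.0691, and 0.0364 with the replicate block) and overlapping H3K27me3 (adjusted p = 0.998). Fgfr2, a fibroblast growth factor receptor required in trophoblast, held members over 1.84% of a gene record of 2960 kb, and ExE peaks covered 32.1% of the same record. Its body had 0.578 to 0.641 RPKM of H3K36me3 in wild-type epiblast and 0.677 to 0.720 RPKM in ExE. A record of that length spans other genes, so these levels cannot be assigned to Fgfr2.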

How the data were processed

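The authors made ultra low-input native ChIP-seq libraries, trimmed reads with Trim Galore 0.4.4 and aligned them with Bowtie2 2.3.2 to GRCm38 (versions per the submitters' processing notes). They deposited RPKM in 1 kb windows for 51 libraries, peak lists per cross, tissue and mark whose score is 0 throughout, so that only positions were used, and allelic tables of raw read counts per peak. All deposited RPKM windows were whole multiples of 1 read within 0.05 (100% of windows), and these reads were used in the edgeR alternative. Inputs were not subtracted.

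Windows were averaged over peaks, gene bodies and start sites ± 1000 bp (GENCODE M21), and limma 3.58.1 (R 4.3.3) was fitted to log2(RPKM + 0.5) with a mean for each of 6 groups over the 12 libraries of a mark. Tests were two-sided with Benjamini-Hochberg adjustment over all peaks or genes. P-values measure the spread between pools. On simulated reads of these depths the limma fit called more unchanged peaks in matDKO/CAST than its threshold allows, and edgeR 4.0.16 did not, so a fit with library weights was added after seeing the data. A start state needed a peak in both wild-type crosses. Tables and plots were made with Python 3.11.15.

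The members and gene lists were chosen with earlier results of these data known. Genes are named when a list gene holds a member (up to 6 per list by covered share) or, among coding genes with at least 50% of the body covered, as the 10 with the most covered bases, the 5 with the largest matDKO/CAST H3K36me3 difference and the 5 with the largest H3K4me3 or H3K27me3 change in each direction past adjusted p 0.05. Dcc, Ephb1 and Slit3 were named after their values were seen, and 1 list gene is not reported here.

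Libraries of 2 tissues with the same replicate number were checked for shared deviations from their group means. For H3K4me3 the correlations were 0.347 (matDKO/CAST), 0.503 (CAST/B6) and 0.519 (B6/CAST), so the numbers were treated as a possible pairing. The 2 libraries of a group deviate by equal and opposite amounts, so each cross gives a single correlation and pairing was not shown. For H3K36me3 they were, in the same order, 0.124, 0.0545 and 0.135 and for H3K27me3 -0.149, 0.0513 and 0.0961, and the numbers were not taken to pair them.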

Additional observations from a re-analysis of the deposited data

How the results depend on the processing

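The limits are depth (2.09 M reads in the least deep H3K36me3 library) and 2 pools per group. Counts are given as higher and lower in epiblast, and the causes of changes were not tested. Keeping peaks longer than the table's median left 1471 members. With one library left out at a time, matDKO/CAST peaks gave 13 to 415 higher and 0 to 20 lower, gene bodies 0 to 35 and 0 to 5, H3K4me3 150 to 236 and 2 to 7 (wild type) and 0 to 76 and 0 to 1 (matDKO/CAST), and H3K27me3 11 to 26 and 37 to 80 (wild type) and 0 to 4 and 0 to 14 (matDKO/CAST).

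For matDKO/CAST peaks (326 and 1), quantile normalization gave 12 and 0, the matDKO/CAST libraries alone 0 and 0, edgeR 636 and 0 and library weights 3 and 0. Median centring gave 10 lower (0.406%, against 21.4% of all peaks) and the replicate block 3 lower (0.122%, against 13.0%). For gene bodies (44 and 3), quantile normalization gave 28 and 0 (3.87% higher, against 0.592% of all genes) and the replicate block 14 higher (1.93%, against 0.797%). EdgeR gave 301 and 1, and the matDKO/CAST libraries alone and library weights 0 and 0 each. At least 50% coverage gave 20 and 0 of 114 (17.5% higher, against 1.17%). A mean of at least 0.5 RPKM left 253 members, with 5 lower (1.98%, against 28.4%).

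For wild-type H3K4me3 (225 and 6), 50% coverage gave 34 and 2 of 114 (29.8% higher, against 7.25% of all genes). B6/CAST alone gave 75 and 1 (10.4% higher, against 2.11%) and CAST/B6 alone 138 and 1 (19.1% higher, against 3.93%). The count lower was 3 with a pseudocount of 0.1, 56 with median centring, 19 with quantile normalization (2.62%, against 10.2% of all genes), 1 with the replicate block and 14 with edgeR (1.93%, against 5.87%). For matDKO/CAST (134 and 1), a mean of at least 0.5 RPKM gave 207 and 2 of 488 members (42.4% higher, against 12.2% of all genes). Quantile normalization gave 258 and 21 (35.6% and 2.90%, against 7.55% and 6.79%) and edgeR 262 and 5 (36.2% higher, against 9.11%). At 50% coverage it was 14 and 0 of 114 (12.3% higher, against 4.63%). The replicate block and these libraries alone gave 0 and 0 each. The count lower was 0 and 2 with pseudocounts of 0.1 and 1, 122 with median centring, 2 with library weights and 2 within 2000 bp of the start. Median centring turned the median over members to -0.13.

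For wild-type H3K27me3 (32 and 93), the replicate block gave 52 higher, the wild-type libraries alone 52, the 2000 bp window 53, edgeR 62 and 169, library weights 58 and 141, median centring 145 lower, 50% coverage 2 and 21, B6/CAST alone 4 and 12 and CAST/B6 alone 15 and 20. For matDKO/CAST (6 and 16), a mean of at least 0.5 RPKM gave 12 and 75 of 429 members (2.80% higher, against 7.15% of all genes). Median centring gave 14 and 62 (1.93% higher, against 2.62%) and quantile normalization 35 and 89 (4.83% higher, against 5.19%). EdgeR gave 25 and 35 (3.45% higher, against 4.57%) and the replicate block 74 lower. At 50% coverage it was 0 and 4 of 114 (3.51% lower, against 0.714%). These libraries alone and library weights gave 0 and 0 each.

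For the named genes, 2421 values under an alternative kept direction and side of the threshold, 334 no longer passed, 184 newly passed and 5 turned direction. These 5 are at the start with the most H3K4me3, for Enpp3 H3K4me3 (1.52 in the wild type and 1.95 in matDKO/CAST) and Robo1 H3K4me3 (1.2) and H3K27me3 (-1.06 in the wild type and -1.59 in matDKO/CAST).

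Where limma called 0, more passed at an unadjusted p-value below 0.05. The matDKO/CAST libraries alone then gave 418 and 4 peaks, 53 and 6 gene bodies, 265 and 21 starts for H3K4me3 and 21 and 87 for H3K27me3. Library weights, chosen after seeing the data, gave 154 and 8 gene bodies and 27 and 104 starts for H3K27me3. The unadjusted counts given here, and above for fits that called 0, have no share over all peaks or genes beside them. They therefore do not set the members apart.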

Other observations

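Summed over the epiblast-only peaks, reads came from both parental alleles in nearly equal shares. Of the reads that the authors' deposited counts assign to a parent, the maternal share over the 2464 members was 51.1% and 51.0% in the 2 B6/CAST epiblast libraries, 48.9% and 48.9% in CAST/B6 and 52.9% and 51.1% in matDKO/CAST. Over shared peaks of the same libraries it was 51.1%, 51.1%, 48.8%, 48.8%, 53.8% and 51.8%. The B6 share thus lay slightly above that of CAST in both directions of the cross, and the members followed the shared peaks to within 1 percentage point. The sums include background reads and would also be near 50% if members differed in direction. The median number of informative reads per member and library was 5 to 33, and single members were not tested.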
